A study of Mus musculus with 4 samples.

Results

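The chemokines and their receptors were examined in RNA sequencing libraries of whole uteri from pregnant mice at gestational day E18.5. The members are the protein-coding genes of the deposited counts whose GRCm38 symbol begins with Ccl, Cxcl, Ccr, Cxcr or Ackr followed by a digit, together with Cx3cl1, Cx3cr1, Xcl1 and Xcr1, and without Ccl21a. This gave 65 gene identifiers under 61 symbols, of the 55421 genes listed, with 38 ligand symbols and 23 receptor symbols. Of the 65 identifiers, 32 were expressed, that is, they had at least 1 CPM (count scaled to 1000000 counted read pairs) in at least 2 of the 4 libraries, and 33 were not. Cxcl11 is annotated as a polymorphic pseudogene and is no member, with 0 and 3 counts in WT and 0 and 0 counts in Qa-2- uteri.

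The study compared 2 uterus samples of WT mice (strain C57BL/6J) with 2 of Qa-2- mice (strain B6.Cg-H2b3/FlaCmwJ, or B6.K1) to see how uteri differ when the class Ib molecule Qa-2 is missing. In B6.K1, Qa-2 was not removed by targeting: the strain carries an H2 region from congenic breeding on the B6 background. It was bought from another supplier than the WT mice, so absence of Qa-2, the H2 haplotype and other strain differences cannot be told apart. Matings were within each strain, the labels name no treatment, and they do not say whether the numbered samples came from separate mice. Since the lysates hold all cells of the organ, fewer cells of a type and less RNA per cell cannot be told apart in any value below.

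Chemokines are small secreted proteins, named by the spacing of their first cysteines (CC, CXC, CX3C and XC), that bind to glycosaminoglycans and draw leucocytes along gradients. Their receptors are seven-helix membrane proteins that signal through inhibitory G proteins, whereas the atypical receptors bind chemokines without such signalling and mostly take them up for degradation. In the pregnant uterus, chemokines guide macrophages, natural killer cells and neutrophils into the decidua, and several T-cell-attracting chemokine genes are known to be silenced in decidual stromal cells.

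The libraries held between 33286390 and 41041299 counted read pairs, so 1 CPM stands for 33.3 to 41.0 pairs and the limit of 3 counts for 0.0731 to 0.0901 CPM, which covers counting error only. H2-Q7, 1 of the genes that encode Qa-2, had counts of 6318 and 1251 in WT and of 4 and 2 in Qa-2- libraries, and H2-Q6 had 4204 and 1192 against 3 and 3 counts. All 5 uterine markers (Esr1, Pgr, Hoxa10, Hoxa11 and Oxtr) were expressed in every library. Qa-2- replicate 1 carried the most RNA of yolk sac markers (summed level 490.0 CPM, against 5.53 to 41.5 CPM in the other libraries), and WT replicate 2 the most of trophoblast markers (23.0 CPM, against 0.24 to 3.52 CPM). Epithelial markers summed to 1988 and 1154 CPM in WT and to 2915 and 2873 CPM in Qa-2- uteri, and endothelial markers to 894 and 756 CPM in WT and to 406 and 389.9 CPM in Qa-2- uteri.

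Among the expressed members, the chemokine gene Cxcl14, the myeloid CC chemokine genes Ccl6, Ccl9 and Ccl8, the neutrophil chemokine gene Cxcl1 and the scavenger receptor gene Ackr2 were higher in both WT uteri than in both Qa-2- uteri, by 1.75-fold (Ccl8) to 8.35-fold (Cxcl14) in mean CPM. None of them passed an adjusted p of 0.05 in the quasi-likelihood test of edgeR, with p-values adjusted by Benjamini-Hochberg over all genes, where 0 of 14492 genes passed (0.0%), the smallest adjusted p was 0.17 and 2199 genes had an unadjusted p under 0.05. DESeq2's Wald test on the same counts called these 6 members and no other, all higher in WT, while of all genes it called 2.79% with higher WT levels and 2.04% with higher Qa-2- levels (700 genes together). At an unadjusted p under 0.05 in edgeR, 9 of the 32 expressed members (28.1%) had higher levels in WT and 1 (3.12%) had lower ones, against 8.09% and 7.09% of all genes compared. In 13 members (40.6%) both WT libraries lay above both Qa-2- libraries and in 1 member (Cx3cl1) the order was the opposite, against 18.7% and 32.0% of all genes. With library sizes scaled by TMM normalization these were 15 and 1 members, against 25.4% and 24.5% of all genes. The log2 fold changes given here are WT over Qa-2-, and their median was 0.35 over the expressed members and 0.012 over all genes. The median over the members was 0.17 without Qa-2- replicate 1 and 0.54 without Qa-2- replicate 2. Among these members, 1 (Cxcl1) was expressed through the WT libraries alone, so it had to differ to be counted.

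By role, 12 CC ligands were expressed with a median log2 fold change of 0.80, 8 CXC ligands with 0.30, 3 CXC receptors with 0.19 and 4 atypical receptors with 0.61. All ligands together had a median of 0.38. In the plot of levels by library, the ligands spread over a wider range than the receptors, and the points of Qa-2- replicate 2 stand far to the right for Ccl28, Cxcl17 and Cxcl5.

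**Figure D1:**
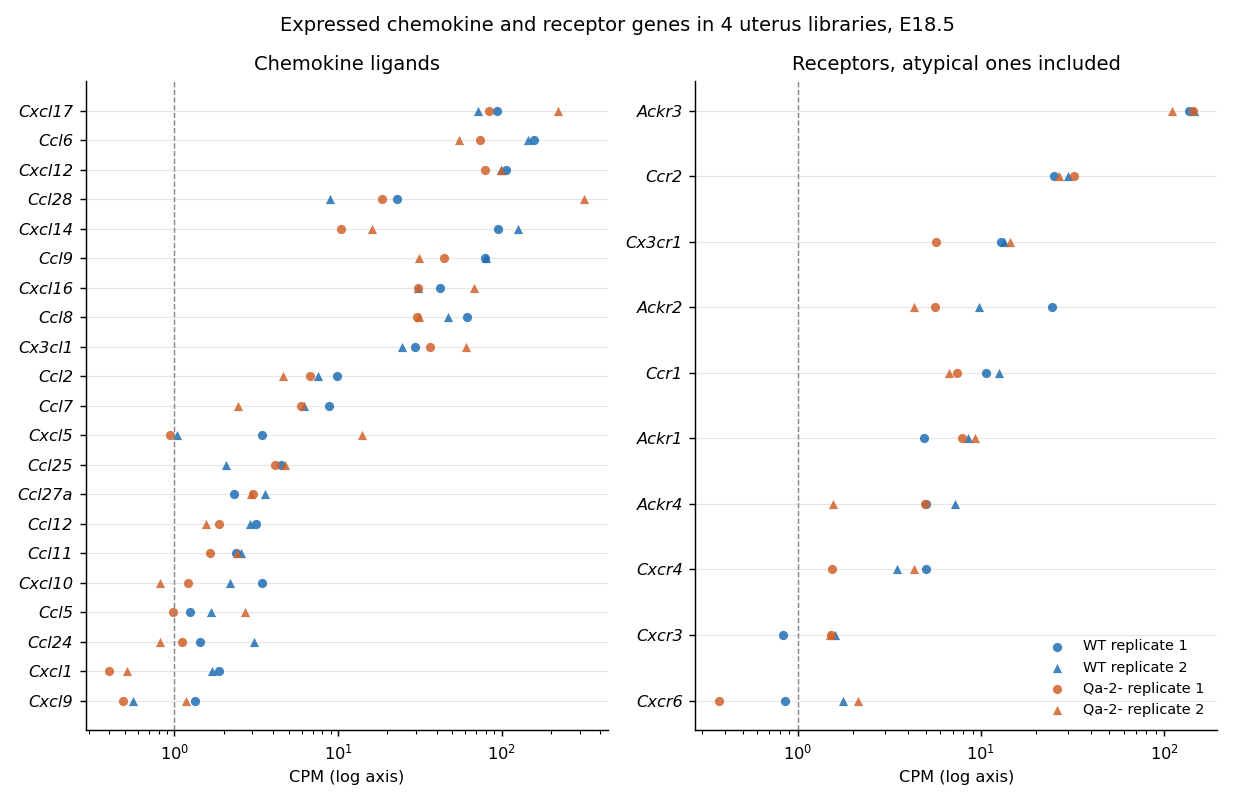
Level of each expressed member described here, in CPM (log axis) in the 4 libraries, for ligands (left) and receptors (right), ordered by mean CPM, with the dashed line at 1 CPM. Circles are replicate 1 and triangles replicate 2, blue for WT and orange for Qa-2-. For Cxcl14 the WT points (94.9 and 126.6 CPM) lie far from the Qa-2- points (10.5 and 16.0 CPM), while for Ccr2 all 4 points lie between 25.1 and 32.04 CPM.

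Cxcl14 (ENSMUSG00000021508, chr13:56288643-56296551 of GRCm38) encodes a chemokine that epithelia and stroma make without stimulation and for which no receptor is generally agreed. It had counts of 3894 and 4989 in WT and of 366 and 534 in Qa-2- libraries, or 94.9 and 126.6 CPM against 10.5 and 16.0 CPM. The groups did not overlap, and the lower WT library was well above the higher Qa-2- library. Its log2 fold change was 3.16 ± 0.28 (standard error, as in all fold changes below), with an adjusted p of 0.228 in edgeR and 7.32e-20 in DESeq2. Leaving out each library in turn gave log2 fold changes from 2.90 to 3.47. Without WT replicate 2, the library with the trophoblast markers, it was 2.92 and edgeR called the gene (adjusted p = 0.027). Of 5 epithelial markers, 4 (all but Epcam) were higher in both Qa-2- libraries. Of 5 stromal markers, Dcn, Lum and Hand2 were higher in both WT libraries, Pdgfra was higher in both Qa-2- libraries and Col1a1 overlapped, with sums of 9769 and 17143 CPM in WT and of 18059 and 9719 CPM in Qa-2- uteri. All 3 mesothelial markers (Msln, Upk3b and Lrrn4) were higher in both WT libraries, with sums of 58.4 and 48.05 CPM in WT and of 21.1 and 11.9 CPM in Qa-2- uteri, and Upk3b had a log2 fold change of 3.42 ± 0.29. No marker of these lists was at 0, and the part of epithelial, stromal and mesothelial content in the level of Cxcl14 was not tested.

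The CC chemokines of myeloid cells formed the next set. Ccl6 (ENSMUSG00000018927, chr11:83587882-83593087) and Ccl9 (ENSMUSG00000019122, chr11:83572919-83578636) are rodent chemokines that bind Ccr1. Ccl6 had 157.7 and 145.7 CPM in WT against 74.0 and 54.5 CPM in the Qa-2- libraries, and Ccl9 had 79.2 and 80.03 CPM against 44.3 and 31.3 CPM. In both genes the WT libraries were close to each other and above the Qa-2- libraries. The log2 fold change was 1.33 ± 0.22 for Ccl6 and 1.17 ± 0.22 for Ccl9, each with an edgeR adjusted p of 0.246, and DESeq2's Wald test gave 0.000169 and 0.00307. Ccl8 (ENSMUSG00000009185, chr11:82115185-82116799), a ligand of Ccr8 in mice, had 61.3 and 47.0 CPM in WT against 30.6 and 31.2 CPM, with a log2 fold change of 0.90 ± 0.18. Its adjusted p was 0.246 in edgeR and 0.0148 in DESeq2's Wald test. Over all alternatives, the adjusted p of the 6 members called by DESeq2 had its lowest value in that test and reached 0.829 when Qa-2- replicate 2 was left out of the edgeR fit.

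The monocyte chemokines Ccl2, Ccl7 and Ccl12, which bind Ccr2, were lower in level and showed the same order of libraries. Ccl2 had 9.92 and 7.59 CPM in WT against 6.79 and 4.63 CPM in the Qa-2- libraries. Ccl7 had 8.84 and 6.22 CPM against 5.93 and 2.43 CPM, so that WT replicate 2 and Qa-2- replicate 1 were nearly equal. Ccl12 had 3.14 and 2.89 CPM against 1.86 and 1.56 CPM, with an edgeR adjusted p of 0.316. The log2 fold changes of these genes were 0.71 ± 0.31, 0.93 ± 0.50 and 0.91 ± 0.34, in that order, and DESeq2 called none of them. For Ccl7 it was 0.41 without Qa-2- replicate 2 and 1.74 without Qa-2- replicate 1.

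These genes sit in 2 groups of neighbours on chromosome 11. One spans chr11:82035571-82305690 with Ccl2, Ccl7, Ccl11, Ccl12, Ccl8 and Ccl1, of which 5 were expressed, 5 had a positive log2 fold change (0.38 to 0.93) and 4 had both WT libraries on top, an order that 18.7% of all genes had. The other spans chr11:83525778-83664683 with Ccl5, Ccl9, Ccl6, Ccl3 and Ccl4. There, 3 genes were expressed, Ccl9 and Ccl6 were higher in both WT libraries, and their neighbour Ccl5 was not (log2 fold change -0.23). No expressed member lies on chromosome 17, which carries H2.

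Ccr1 and Ccr2, receptors of these ligands, differed in their order of libraries. Ccr1, which binds Ccl6, Ccl9, Ccl3 and Ccl5, had 10.6 and 12.6 CPM in WT against 7.45 and 6.67 CPM in the Qa-2- libraries (log2 fold change 0.81 ± 0.23, edgeR adjusted p = 0.275). Ccr2, the receptor by which monocytes leave the bone marrow, had 25.1 and 29.7 CPM against 32.04 and 26.5 CPM. Its groups overlapped, and the log2 fold change was -0.0012 with a standard error of 0.20. Whether Ccr1 differs from Ccr2 in its difference between genotypes was not tested.

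Of 6 macrophage markers, 4 (C1qa, C1qb, Cd68 and Adgre1) were higher in both WT libraries and Csf1r and Mrc1 overlapped. For Adgre1 the lower WT and the higher Qa-2- library were nearly equal (39.2 and 39.1 CPM). None of the 6 was at 0, and the list summed to 719 and 1048 CPM in WT against 703 and 512 CPM in the Qa-2- libraries. C1qa, a complement gene of tissue macrophages, had 159.03 and 213.4 CPM in WT against 109.2 and 93.8 CPM. Monocyte markers overlapped between the groups in 3 of 3 genes, with sums of 222 and 129.3 CPM against 80.8 and 153.7 CPM. Of 4 general leucocyte markers, Cd53 and Coro1a were higher in both WT libraries, Ptprc was higher in both Qa-2- libraries (32.7 and 37.1 against 45.3 and 48.3 CPM) and Laptm5 overlapped, and the list summed to 159.4 and 192.1 CPM in WT and to 154.7 and 152.9 CPM in Qa-2- uteri. Of 5 smooth muscle markers, 4 were higher in both WT libraries and Myh11 overlapped, with sums of 20991 and 33131 CPM in WT and of 18964 and 11039 CPM in Qa-2- uteri. No marker of these lists was at 0, and the part of macrophage, leucocyte and muscle content in the levels of the CC ligands was not tested. The plot of relative levels sets the members beside the marker sums.

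**Figure D2:**
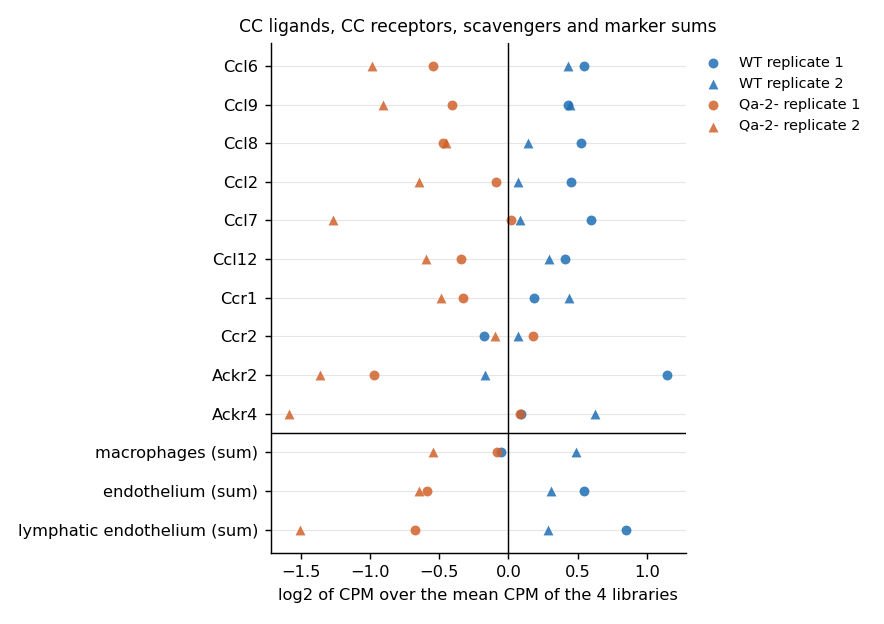
Level in each library relative to the mean CPM of the 4 libraries (log2) for CC ligands, their receptors and 2 atypical receptors, and below the line for the summed CPM of macrophage, endothelial and lymphatic endothelial markers. Circles are replicate 1 and triangles replicate 2, blue for WT and orange for Qa-2-. Ccl6, Ccl9, Ccl8 and Ackr2 have both WT points to the right of both Qa-2- points, while those of Ccr2 are mixed.

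The 4 atypical receptors were all expressed. Ackr2 (ENSMUSG00000044534, chr9:121898355-121911074) encodes the scavenger of inflammatory CC chemokines such as Ccl2 and Ccl5 and is known from lymphatic endothelium and trophoblast. It had 24.4 and 9.80 CPM in WT against 5.64 and 4.30 CPM in the Qa-2- libraries. The WT libraries differed from each other by more than the Qa-2- libraries did, and the lower of them was still above both. The log2 fold change was 1.87 ± 0.48 (adjusted p = 0.265 in edgeR and 0.00618 in DESeq2), and 1.06 without WT replicate 1.

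Ackr4, which takes up Ccl19, Ccl21 and Ccl25, had 4.99 and 7.21 CPM in WT against 4.95 and 1.56 CPM. WT replicate 1 and Qa-2- replicate 1 were nearly equal, and the log2 fold change of 0.99 ± 0.60 was 0.37 without Qa-2- replicate 2 and 2.08 without Qa-2- replicate 1. Ackr3, the scavenger of Cxcl12, was the receptor with the highest level, with 136.1 and 144.9 CPM against 144.2 and 110.7 CPM (log2 fold change 0.23 ± 0.21). Ackr1, which binds chemokines on red cells and venules, had 4.87 and 8.45 CPM against 7.85 and 9.31 CPM (log2 fold change -0.26 ± 0.34). Both genes overlapped between the groups. The annotated span of Ackr1 overlaps that of Cadm3 on its strand, and pairs that touched exons of both were not counted. The erythroid markers Hbb-bs, Hba-a1 and Alas2 were higher in both WT libraries, and Hbb-bs had 240.2 and 393 CPM in WT against 64.4 and 48.8 CPM. The part of red cell content in the level of Ackr1 was not tested.

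All 4 lymphatic endothelial markers (Lyve1, Flt4, Pdpn and Prox1) were higher in both WT libraries, with sums of 746 and 507 CPM against 260.2 and 146.2 CPM, and the same held for all 4 endothelial markers. None of these markers was at 0. Of 5 trophoblast markers, Gcm1 was at 0 in all libraries, and the list summed to 0.439 and 23.0 CPM in WT against 3.52 and 0.24 CPM. The part of lymphatic, endothelial and trophoblast content in the level of Ackr2 was not tested. Ccl21b, a ligand of lymphatic vessels with nearly identical copies, was under the filter. Its best covered copy, on the unplaced scaffold GL456350.1, had counts of 52 and 11 in WT and of 27 and 4 in Qa-2- libraries, and since pairs that fit several copies were not counted, these counts are uncertain.

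To show the start regions behind these values, the 250 bases upstream of the RefSeq transcription start (GRCm38.p6) are given for Cxcl14, Ccl9, Ccl8 and Cxcl1, members called by DESeq2 that hold at least 1 of the searched motifs there, and for Cxcl10, which holds several. Capitals mark matches on either strand to an NF-kappaB-type motif (GGGA and TTCC with 2 bases between them), an interferon-response-type motif (GAAA and GAAA with 2 bases between them), an AP-1-type motif (TGANTCA) or a TATA box (TATAAA), where N is any base.
Cxcl14, chr13:56296552-56296801, minus strand: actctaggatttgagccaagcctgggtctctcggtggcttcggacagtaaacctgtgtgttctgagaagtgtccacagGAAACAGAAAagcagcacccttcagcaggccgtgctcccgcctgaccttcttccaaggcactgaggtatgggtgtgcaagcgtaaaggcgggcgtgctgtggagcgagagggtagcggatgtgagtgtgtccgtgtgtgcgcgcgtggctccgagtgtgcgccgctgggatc
Ccl9, chr11:83578637-83578886, minus strand: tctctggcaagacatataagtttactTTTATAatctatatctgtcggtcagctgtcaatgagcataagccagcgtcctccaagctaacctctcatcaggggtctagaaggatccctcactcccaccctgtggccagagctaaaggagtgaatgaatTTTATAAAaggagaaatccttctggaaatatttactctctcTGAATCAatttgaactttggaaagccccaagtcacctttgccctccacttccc
Ccl8, chr11:82114935-82115184, plus strand: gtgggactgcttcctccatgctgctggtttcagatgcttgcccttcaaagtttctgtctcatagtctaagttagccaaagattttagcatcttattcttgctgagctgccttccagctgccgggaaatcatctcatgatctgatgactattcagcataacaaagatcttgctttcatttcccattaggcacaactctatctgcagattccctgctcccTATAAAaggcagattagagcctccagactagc
Cxcl1, chr5:90890995-90891244, plus strand: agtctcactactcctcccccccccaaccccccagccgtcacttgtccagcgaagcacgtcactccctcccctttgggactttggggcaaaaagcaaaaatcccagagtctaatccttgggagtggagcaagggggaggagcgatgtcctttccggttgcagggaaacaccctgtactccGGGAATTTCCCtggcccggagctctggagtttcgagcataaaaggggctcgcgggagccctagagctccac
Cxcl10, chr5:92348890-92349139, minus strand: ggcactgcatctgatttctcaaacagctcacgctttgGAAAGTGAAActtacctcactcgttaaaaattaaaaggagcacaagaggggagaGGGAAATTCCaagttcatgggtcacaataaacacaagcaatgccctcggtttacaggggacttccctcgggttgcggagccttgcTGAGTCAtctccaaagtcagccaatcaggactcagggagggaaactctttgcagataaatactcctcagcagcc

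Positions are counted from the transcription start, with -1 just before it, and give the first base of a match on the gene's strand. Cxcl14 has 1 interferon-response-type match at -172. Ccl8 has 1 TATA box at -32, and Ccl9 has overlapping TATA boxes on both strands at -94 and -92, a further one at -224 and an AP-1-type match at -53. In Cxcl1 the NF-kappaB-type motif matches both strands in overlapping positions, -71 and -70. Cxcl10 has an interferon-response-type match at -213, an NF-kappaB-type match at -159 and an AP-1-type match at -74. Windows of 300 bases, which run past the start, were at hand for 45 of the 61 member symbols and for 23 of the 32 expressed members. Among the expressed members the NF-kappaB-type motif was found in 2 (Cxcl1 and Cxcl10), the interferon-response-type motif in 2 (Cxcl10 and Cxcl14), the AP-1-type motif in 5 and the TATA box in 9, and of all 32851 windows 1.47%, 3.44%, 7.81% and 13.6% hold them. The member counts are of symbols with a match in any of their windows. The shares are of single windows, so no excess can be read from the comparison. Overlaps between motifs were counted for each motif. A match is a run of letters and says nothing about binding.

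Cxcl1 (ENSMUSG00000029380, chr5:90891241-90893115), a ligand of Cxcr2 that draws neutrophils, was scarce. It had counts of 77 and 67 in WT and of 14 and 17 in Qa-2- libraries, or 1.88 and 1.70 CPM against 0.401 and 0.511 CPM. Both WT libraries had several times the level of both Qa-2- libraries, and the log2 fold change was 2.06 ± 0.41 (adjusted p = 0.246 in edgeR and 0.0268 in DESeq2). Cxcl1 reached 1 CPM in the WT libraries alone, so it had to differ to be counted. Its order of libraries and its p-values are therefore no support for a difference. Its chromosome 5 neighbour Cxcl5, also a Cxcr2 ligand, had 3.44 and 1.04 CPM in WT against 0.945 and 14.1 CPM, and Cxcl2 had 31 and 34 counts against 4 and 54 counts. Both were highest in Qa-2- replicate 2. The receptor Cxcr2 had between 9 and 42 counts and Cxcr1 at most 2. Of the 6 neutrophil markers, Csf3r and S100a9 were expressed. Csf3r was higher in both WT libraries, with 4.12 and 6.14 CPM against 3.69 and 3.27 CPM. S100a9 overlapped, with 2.90 and 1.47 CPM against 0.515 and 2.40 CPM. The others were under the filter, among them Ly6g with 0, 0, 2 and 0 counts. The part of neutrophil content in the level of Cxcl1 was not tested.

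Cxcl10 and Cxcl9, which interferon-gamma induces and which bind Cxcr3 on T cells and natural killer cells, gave different orders of the libraries. Cxcl10 had 3.41 and 2.18 CPM in WT against 1.20 and 0.811 CPM in the Qa-2- libraries (log2 fold change 1.56 ± 0.44, adjusted p = 0.275 in edgeR and 0.0823 in DESeq2, the latter the lowest of its alternatives, which reached 0.829). Cxcl9 had 1.34 and 0.558 CPM against 0.487 and 1.17 CPM, with overlap. The receptor Cxcr3 had 0.828 and 1.60 CPM against 1.52 and 1.50 CPM (log2 fold change -0.22 ± 0.47). All 3 genes lie near the expression filter of 1 CPM.

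Cxcl12, which holds stem cells and lymphocytes in tissue niches through Cxcr4, had a smaller standard error than any other ligand. It had 106.7 and 98.45 CPM in WT against 78.7 and 98.54 CPM in the Qa-2- libraries, with a log2 fold change of 0.31 ± 0.17. Cxcr4 had 5.02 and 3.50 CPM against 1.55 and 4.30 CPM, and its log2 fold change of 0.65 ± 0.54 was 0.10 without Qa-2- replicate 1 and 1.52 without Qa-2- replicate 2. Per length, the decoy Ackr3 was more abundant than the signalling receptor Cxcr4 in all 4 libraries, with 96.3 to 135.2 TPM (transcripts scaled by length and to 1000000) against 2.68 to 7.75 TPM.

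**Figure D3:**
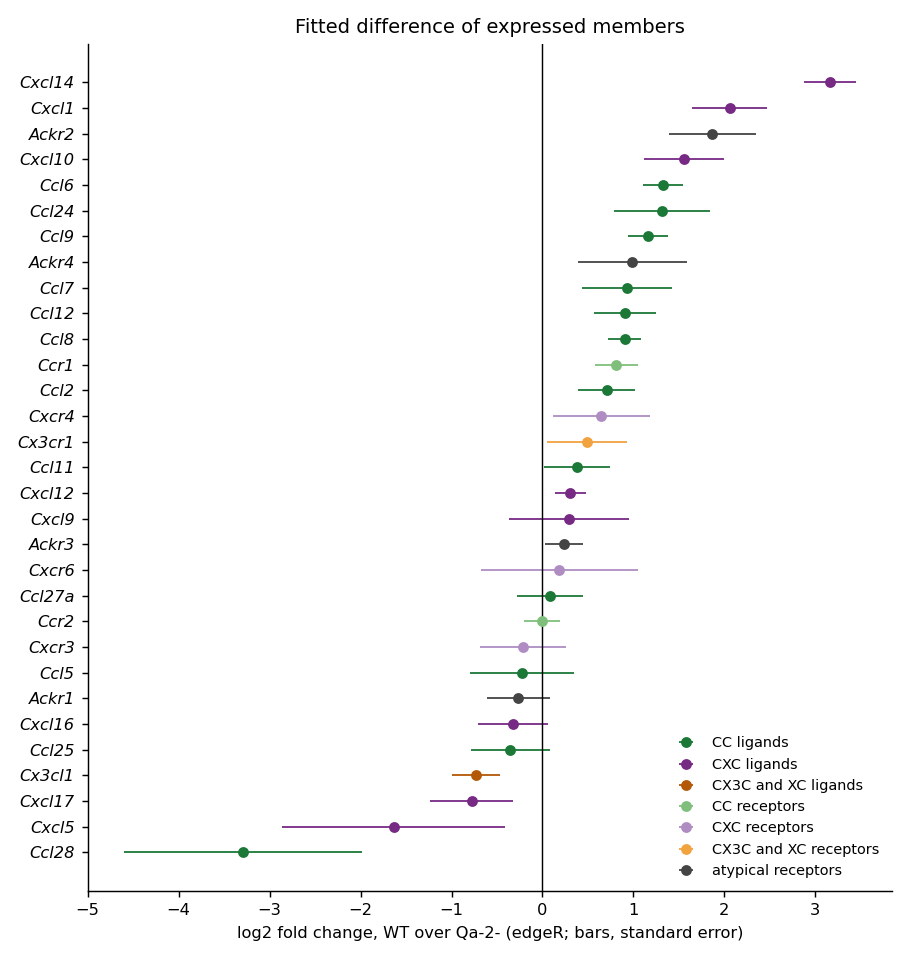
Fitted log2 ratio (WT to Qa-2-) for the expressed members described here, with standard errors as bars, from edgeR, coloured by role. Values run from 3.16 (Cxcl14) to -3.29 (Ccl28), and the bars of Ccl28 and Cxcl5 are the widest.

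Several ligands had their highest value in Qa-2- replicate 2, and those described next were chosen for it after their values were seen. Ccl28 (ENSMUSG00000074715, chr13:119623819-119654359), a chemokine of secretory epithelia that binds Ccr10 and Ccr3, was counted 947 and 350 times in WT, 644 times in Qa-2- replicate 1 and 10624 times in Qa-2- replicate 2. In CPM these were 23.1, 8.88, 18.4 and 319.2. The other Qa-2- library lay between the WT libraries. The log2 fold change of -3.29 ± 1.31 (edgeR adjusted p = 0.335) was -0.15 without Qa-2- replicate 2.

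Cxcl17, a chemokine of mucosal surfaces, had 93.2 and 71.9 CPM in WT against 83.2 and 221.3 CPM in the Qa-2- libraries. Its log2 fold change of -0.78 ± 0.46 was 0.053 without Qa-2- replicate 2. For Cxcl5 these values were -1.64 ± 1.23 and 1.30, so its direction turned without that library. Ccl20, the ligand of Ccr6, was under the filter with 29 and 7 counts in WT and 5 counts in Qa-2- replicate 1, and it had 127 counts in Qa-2- replicate 2. Of the 32 expressed members, 10 had their highest value in Qa-2- replicate 2 and 12 their lowest. In Qa-2- replicate 1, 1 member (Ccr2) had its highest value and 12 had their lowest.

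Of the 5 epithelial markers, 4 had both Qa-2- libraries above both WT libraries. Krt8 had 742 and 411 CPM in WT against 1179 and 1027 CPM in the Qa-2- libraries, and Cdh1 had 171.3 and 70.2 CPM against 217.5 and 268.6 CPM. Epcam was highest in Qa-2- replicate 2, with 383 CPM against 105.5 to 206.0 CPM elsewhere. None of the 5 epithelial markers was at 0. The plot of these ligands and markers shows their values side by side, and the part of epithelial content in the levels of the ligands was not tested.

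**Figure D4:**
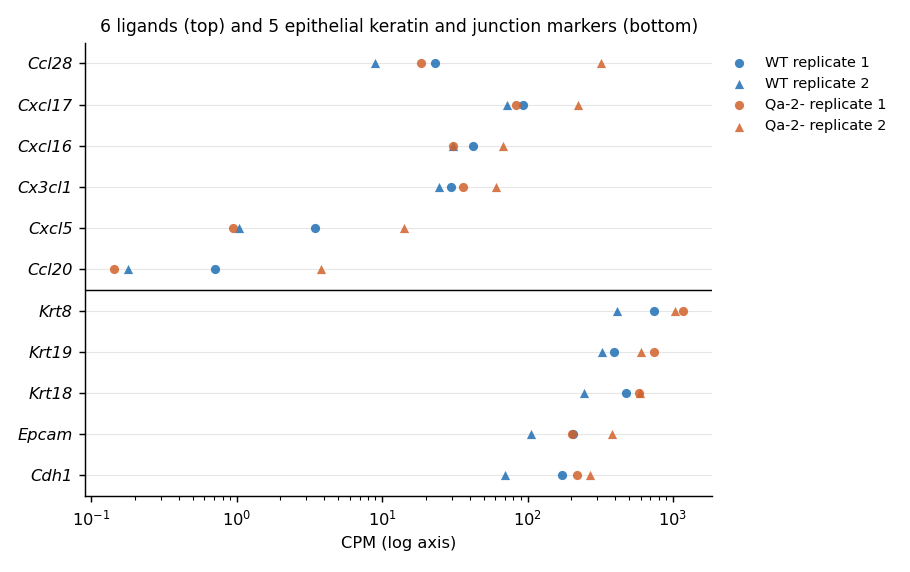
Level in CPM (log axis) in each library of 6 ligands (above the line; Ccl20 was under the expression filter) and of 5 epithelial markers (below the line). Circles are replicate 1 and triangles replicate 2, blue for WT and orange for Qa-2-. Ccl28 reached 319.2 CPM in Qa-2- replicate 2 against 8.88 to 23.1 CPM elsewhere, and Epcam reached 383 CPM there against 105.5 to 206.0 CPM elsewhere.

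The membrane-bound chemokine Cx3cl1 (ENSMUSG00000031778, chr8:94772009-94782427) was the member with both Qa-2- libraries above both WT libraries. It had 29.7 and 24.7 CPM in WT against 36.3 and 60.4 CPM in the Qa-2- libraries (log2 fold change -0.73 ± 0.27, adjusted p = 0.314 in edgeR, 0.2 in DESeq2 and from 0.112 to 0.829 over the alternatives). Without Qa-2- replicate 2 the value was -0.35. Its receptor Cx3cr1, which marks patrolling monocytes and tissue macrophages, had 12.8 and 13.3 CPM against 5.70 and 14.4 CPM, so that Qa-2- replicate 1 stood low. The annotated span of Cx3cr1 overlaps those of 3 other genes on its strand, and pairs that touched exons of several genes were not counted. Cxcl16, the other membrane-bound chemokine, had 42.1 and 30.8 CPM against 30.7 and 67.4 CPM, and its receptor Cxcr6 had 0.853 and 1.78 CPM against 0.372 and 2.13 CPM. Ligand and receptor overlapped between the groups in this pair.

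Ccl5, a T-cell and natural killer cell chemokine, had 1.24 and 1.68 CPM in WT against 0.974 and 2.704 CPM in the Qa-2- libraries, and Xcl1, the ligand of dendritic cell receptor Xcr1, had between 7 and 30 counts. Of 6 T-cell markers, Cd4 was expressed (0.95 to 3.32 CPM) and 5 were under the filter, and of 6 natural killer cell markers, 4 were expressed (Prf1, Klrk1, Gzma and Eomes) and 2 were under the filter (Klrb1c and Ncr1). No marker of either list was at 0 in a library, and apart from Prf1 and Cd4 the highest level was that of Klrk1 in Qa-2- replicate 2, at 2.28 CPM. Prf1, the perforin gene of killer cells, stood apart in WT replicate 1 with 3140 counts, against 47 to 159 counts in the other libraries. The eotaxin genes Ccl24 and Ccl11 were expressed while their receptor Ccr3 had at most 8 counts. Ccl24 had 1.44 and 3.07 CPM in WT against 1.12 and 0.811 CPM (log2 fold change 1.32 ± 0.53), and 0.65 on the log2 scale without WT replicate 2. Ccl11 had 2.36 and 2.56 CPM against 1.66 and 2.40 CPM. Ccl25, the gut and thymus ligand of Ccr9, had 4.46 and 2.06 CPM against 4.12 and 4.75 CPM, and Ccl27a, a ligand of Ccr10, had 2.31 and 3.58 CPM against 3.01 and 2.94 CPM.

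The other 33 identifiers, under 29 symbols, did not reach the filter. These were the CC ligands Ccl1, Ccl3, Ccl4, Ccl17, Ccl19, Ccl20, Ccl21b, Ccl21c, Ccl22, Ccl26, Ccl27 and Ccl27b, the CXC ligands Cxcl2, Cxcl3, Cxcl13 and Cxcl15, and Xcl1. The receptors were Ccr1l1, Ccr3, Ccr4, Ccr6, Ccr7, Ccr8, Ccr9, Ccr10, Cxcr1, Cxcr2, Cxcr5 and Xcr1. In 7 identifiers, all of CC ligands and 5 of them copies on unplaced scaffolds, no library had a count. For the scaffold copies this sets no limit on the level, since pairs that fit several copies were not counted, and for Ccl26 it allows up to 0.0731 to 0.0901 CPM. For Ccl27b, on chromosome 4, no limit is given, since pairs that also fit similar copies would not be counted. A further 7 reached 1 CPM in 1 library, among them Cxcl13, a B-cell chemokine, with 55 counts in WT replicate 2 against 11, 1 and 3 counts in the others. Ccr7, which leads dendritic cells to lymph nodes, had counts of 18 and 16 in WT and of 9 and 13 in Qa-2- libraries, and its ligand Ccl19 at most 2 counts on chromosome 4. Pairs that also fit the scaffold copy of Ccl19 were not counted, so its level is uncertain.

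Compared per length, the order of the members' mean TPM over the 4 libraries began with Cxcl17 (455), Ccl8 (246), Ccl6 (178), Ackr3 (119.5) and Cxcl14 (100.4). Cxcl17 was the top ligand in every library, at 290.4 to 847 TPM. Cxcl14 was among the 4 top ligands in both WT libraries, with 145.04 and 213.05 TPM, and in neither Qa-2- library, with 18.0 and 25.6 TPM. Ccl28 took its place among them in Qa-2- replicate 2, at 191.8 TPM. Among the signalling receptors Ccr2 (12.5 TPM), Ccr1 (9.81 TPM) and Cx3cr1 (7.58 TPM) were highest, and apart from Ccr1 these overlapped between the groups.

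Of 25 genes that carry the signal inside the cell (G proteins, arrestins, kinases and their regulators), all were expressed. In edgeR Rgs16, Rgs1 and Elmo1 (3 genes) were higher in WT at an unadjusted p under 0.05 and Grk3 (1 gene) was lower, against 8.09% and 7.09% of all genes. DESeq2 called Rgs16 (adjusted p = 6.48e-07) and Rgs1 (adjusted p = 0.0177), both higher in WT, and 0 in the other direction, against 2.79% and 2.04% of all genes. The median log2 fold change of the list was 0.17, and 8 genes had both WT libraries on top and 2 had the opposite order, against 18.7% and 32.0% of all genes. Rgs16, which shortens signals of inhibitory G proteins, had 9.82 and 7.11 CPM in WT against 1.89 and 1.71 CPM (log2 fold change 2.32 ± 0.31, edgeR adjusted p = 0.244). Rgs1, a regulator of the same kind in leucocytes, had 14.5 and 28.9 CPM against 9.59 and 6.58 CPM. Elmo1, a partner of Dock2 in cell movement, had a log2 fold change of 0.97, and Grk3, a kinase that desensitizes receptors, one of -0.82. Gnai2, the main inhibitory G protein of leucocytes, had 505 and 529.8 CPM against 432 and 427 CPM.

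Of 12 chemokine-related symbols outside the family names, 11 were found and expressed, and 5 were higher in WT at an unadjusted p under 0.05 (S1pr1, Gpr182, Gpr1, Rarres2 and Mif) and 0 were lower, against 8.09% and 7.09% of all genes. DESeq2 called 3 of them, S1pr1 (adjusted p = 0.000444), Gpr182 (adjusted p = 0.00118) and Gpr1 (adjusted p = 0.00674), and 0 in the other direction, against 2.79% and 2.04% of all genes. S1pr1 encodes a receptor for a lipid, not for a chemokine. Gpr182, an endothelial scavenger of chemokines, had 11.4 and 12.03 CPM in WT against 5.24 and 3.91 CPM (log2 fold change 1.45 ± 0.27). The endothelial markers were higher in both WT libraries too, and their part in the levels of Gpr182 and S1pr1 was not tested. Rarres2, the gene of chemerin, had 280.3 and 352 CPM against 222.1 and 176.3 CPM, and the chemerin receptor Gpr1 had 3.53 and 6.60 CPM against 1.52 and 1.32 CPM. The chemerin receptor Cmklr1 overlapped, with 46.5 and 68.3 CPM against 76.4 and 64.6 CPM. The platelet chemokines went opposite ways, Pf4 with a log2 fold change of 0.60 ± 0.25 and Ppbp with -0.75 ± 0.37, neither at an unadjusted p under 0.05. The median of these 11 genes was 0.60.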

How the data were processed

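RNA was isolated from snap-frozen uteri, captured by poly(A) and made into directional libraries, which were sequenced as read pairs. The deposited values are raw counts of read pairs per gene, which the authors made with featureCounts 2.0.0 on exons of a GRCm38 annotation and the reverse strand, for pairs whose ends both mapped (minimum quality 3). Pairs with several positions or genes were not counted, so similar copies lose reads. The submitters' processing notes name STAR 2.7.3a. CPM were computed from library totals, and TPM from counts and the files' gene lengths. Symbols and gene types came from GENCODE M21, in which 55240 of 55421 identifiers were found.

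Genes reaching 1 CPM in 2 or more libraries were kept and compared with edgeR 4.0.16 (TMM, glmQLFit and glmQLFTest) in R 4.3.3, and with DESeq2 1.42.0 as an alternative. Standard errors were taken as the absolute log2 fold change divided by the square root of F. With 2 samples per group the smallest two-sided p of an exact permutation test is 0.333, and p-values measure only the spread between these samples, which may be technical. The 2 libraries of a group differed by more than sampling noise (240.8 and 150.9 chi-square per gene in WT and Qa-2-). The steps were tested on simulated counts. Promoter sequences are from RefSeq (GRCm38.p6).

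The members and all lists were chosen with earlier results of these data known, so no p is adjusted over them and no list was tested. 1 expressed member, counted in the totals, and 1 marker are not reported here. The other expressed members were given by role, with values by library for those with an unadjusted p under 0.05, the most abundant of each role and the ligand and receptor pairs. Other gene lists were named by p or by the largest changes. Further genes, such as Cxcl2, Ccl20, Cxcl13 and Gnai2, were chosen after their values were seen. Ccl21a was left out. The alternatives were upper-quartile scaling, library totals, other filters, a robust fit, a replicate block and leaving out each library.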

Additional observations from a re-analysis of the deposited data

How the results depend on the processing

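Why the values below moved was not tested, and the cause was not tested for any of them. With TMM, with upper-quartile factors, with library totals, with a floor of 10 counts per library or with a robust fit, edgeR called 0 genes. DESeq2 called 700 genes, 6 of them members, and edgeR without a filter called 61 genes, 1 of them a member (Cxcl14). Leaving out each library in turn gave 0 to 45 called genes and 0 to 1 called members (45 genes, among them Cxcl14, without WT replicate 2), 6 to 15 members at an unadjusted p under 0.05 (6 without WT replicate 2, where 1853 of all genes had one, and 7 without Qa-2- replicate 2, where 776 had one, and 15 without Qa-2- replicate 1, where 1733 had one, against 2199 with all libraries), a median log2 fold change of the members from 0.17 (without Qa-2- replicate 1) to 0.54 (without Qa-2- replicate 2), 15 to 22 members with WT on top (22 without Qa-2- replicate 2, against 29.4% to 31.1% of all genes over these settings) and 2 to 10 members with Qa-2- on top (10 without Qa-2- replicate 1, against 41.4% to 48.6% of all genes). In these fits the lone library of a group is assumed to vary like the other group. Without a filter and with at least 10 counts in every library, 2 members had both Qa-2- libraries on top. With 1 CPM asked for in all 4 libraries 24 members were expressed, and with 0.5 CPM in 2 libraries 42.

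The labels number the libraries 1 and 2 in each group, but no pairing is described and the deviations of same-numbered libraries had a correlation of -0.37. With the replicate block 2 genes and 0 members were called, with 8 members and 1331 of all genes at an unadjusted p under 0.05. With the crossed pairing, chosen after seeing the data, 0 genes and 0 members were called, and 13 members and 3625 of all genes had an unadjusted p under 0.05. TMM-scaled orders of libraries and orders with a library left out were also added after seeing the data.

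Of 378 values of single members under these alternatives, 359 kept their direction, and 20 of the 32 members kept it in all of theirs. Reversed values came with each of the libraries left out, and for Ccr2 and Ccl27a with other settings too. The log2 fold change of Ccr2 was 0.0068 with upper-quartile normalization, 0.011 without a filter, 0.0026 with at least 10 counts, 0.0011 with the replicate block and 0.0011 with the crossed pairing, and that of Ccl27a was -0.014 with library totals alone. With each library left out in turn it ran from -0.16 to 0.16 for Ccr2, -0.28 to 0.35 for Ccl27a, -0.74 to 0.065 for Ackr1, -1.02 to 0.086 for Ccl25, -0.77 to 0.65 for Ccl5, -0.022 to 1.26 for Cx3cr1, -0.77 to 0.31 for Cxcl16, -1.31 to 0.053 for Cxcl17, -2.75 to 1.30 for Cxcl5, -0.19 to 0.78 for Cxcl9, -0.79 to 0.17 for Cxcr3 and -0.58 to 0.60 for Cxcr6. Cxcl1, Cxcl9 and Cxcr6 fell below the filter in some of these fits and gave no value there.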
